A study of Mus musculus with 22 samples.

Results

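The basement membrane genes are 10 genes taken by symbol from the FPKM table of a mouse embryo RNA-seq series, which lists 55335 genes. They are 4 laminin chains (Lama1, Lama5, Lamb1 and Lamc1), both chains of the common type IV collagen (Col4a1 and Col4a2), perlecan (Hspg2), both nidogens (Nid1 and Nid2) and the collagen-binding protein Sparc. B6D2F1 embryos were collected as 2-cell embryos at 43 to 44 h post hCG injection, as morulae at 78 h and as blastocysts at 94 h, and each library was made from a pool of 15 embryos by Smart-seq2. The H2A.Z KD embryos had been injected as zygotes, at 20 to 22 h post hCG injection, with about 10 pL of a mix of siRNAs against H2A.Z at 20 µM, and the others are labelled control. The study's qPCR used noninjected control embryos, and whether the control embryos of these libraries were injected is not given in the sources used here. Each stage had 4 control libraries. KD libraries numbered 3 for 2-cell embryos, 3 for morulae and 4 for blastocysts. A blastocyst library averages over all cell types of whole embryos. The study reported that H2A.Z KD strongly lowered the rate of blastocyst formation but left development to the morula unchanged. How the KD embryos pooled at 94 h were chosen is not given in the sources used here. Whether KD and control blastocysts were equally far developed was not tested.

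A basement membrane is a thin sheet of matrix on which epithelia sit. Laminins are trimers of an alpha, a beta and a gamma chain and form its first network at the cell surface, type IV collagen forms a second, covalently linked network, and nidogens and perlecan bridge them. Sparc binds collagen IV and is known for its high level in parietal endoderm, which lays down the thick membrane between trophoblast and yolk sac. Laminin appears in the preimplantation embryo before an organized membrane does, and in the late blastocyst membranes underlie the trophectoderm and the primitive endoderm.

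Reference sequence is shown for 2 members whose levels moved in different ways and for the collagen pair, whose genes share a start region. The promoter table of RefSeq held 7 of the 10 members on GRCm38.p6. The Lamb1 and Nid1 stretches below are the part of each window that lies outside annotated exons. The collagen stretch instead spans the start sites of both genes. Capitals mark matches of CCAAT, the core of the CCAAT box, and of the GC box, whose letters are GGGCGG, each read on both strands. The window of Sparc is not printed because it overlaps exons of other annotated Sparc transcripts.
Lamb1, chr12:31265043-31265233, + strand: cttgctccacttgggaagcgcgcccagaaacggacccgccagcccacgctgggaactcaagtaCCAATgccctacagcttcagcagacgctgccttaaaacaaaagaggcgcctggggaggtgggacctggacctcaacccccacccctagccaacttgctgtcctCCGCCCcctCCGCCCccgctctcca
Nid1, chr13:13437352-13437550, + strand: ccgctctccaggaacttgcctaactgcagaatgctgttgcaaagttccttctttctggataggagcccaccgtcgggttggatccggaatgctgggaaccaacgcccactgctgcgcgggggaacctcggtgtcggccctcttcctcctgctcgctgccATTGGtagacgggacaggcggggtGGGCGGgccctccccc
Col4a1 and Col4a2, chr8:11312801-11312830, + strand: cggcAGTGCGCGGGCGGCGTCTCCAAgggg

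The Lamb1 stretch of 191 bases held 1 match of the CCAAT box and 2 of the GC box, and the Nid1 stretch of 199 bases held 1 match of each. In a stretch of 191 bases at the same distance from the start, 26.9% of all 32851 promoters held a CCAAT box and 23.1% a GC box, and in one of 199 bases 28.2% and 24.4%. A TATA box (TATAAA), searched on both strands, had no match in either stretch, nor had the core of a GATA site (searched as GATAA) or an AP-1 site (searched as TGANTCA). In the collagen stretch, capitals mark the 22 bases that both genes annotate as transcribed: Col4a2 starts at base 11312805 on the + strand and Col4a1 at base 11312826 on the - strand, so the genes run head to head. These matches describe letters in a window and not bound sites.

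H2afz, the main gene of H2A.Z, checked the labels. Its level was 905 to 1244 FPKM in control 2-cell embryos and 415, 139 and 112 FPKM in the KD libraries, 1158 to 1511 against 25.7 to 30.3 FPKM in morulae and 1945 to 2656 against 53.2 to 67.2 FPKM in blastocysts. No KD library overlapped the controls at any stage. With limma, the adjusted p was 9.71e-08 in morulae and 3.63e-08 in blastocysts but 0.543 in 2-cell embryos, where replicate 1 kept the most. H2afv, the second H2A.Z gene, was also lower by limma in KD morulae (-2.93, adjusted p = 2.93e-06) and KD blastocysts (-1.86, adjusted p = 7.95e-05). In 2-cell embryos H2afv was not called (-0.23, adjusted p = 0.84). Libraries summed to between 423915 and 722576 FPKM and listed 24481 to 29177 genes above 0. The depth in reads is unknown, and errors are therefore spreads between libraries. Nothing in the labels says that libraries came from separate matings, and p-values measure the spread between these pools.

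H2A.Z KD blastocysts had less Sparc and less Lamb1 than control blastocysts, and no member passed the test in 2-cell embryos or morulae. A gene was tested where at least 3 libraries of the fit reached 1 FPKM, which left 2 members in 2-cell embryos (Lamb1 and Nid2), 2 in morulae (Lamc1 and Nid1) and 7 in blastocysts (not Lama1, Col4a2 and Hspg2). In 2-cell embryos 0 of the 2 members were called by limma, at a background of 0% of 12160 genes, of which 701 had an unadjusted p under 0.05. In morulae 0 of 2 members were called, at a background of 13.3%. In blastocysts 2 of 7 members were called, both lower, where 36.5% of all genes tested were called and 19.8% were called lower. A count of 2 of 7 is near that background and says nothing particular about basement membrane genes. Lamb1 and Nid2 reached 1 FPKM in 4 control but only 2 KD libraries, so their passing the filter rested on the control group. The median log2 fold change of the 7 was -0.22, and of all genes tested 0.0047. Without scaling between libraries the median of all genes in morulae moved from 0.02 to -0.09 and the calls of all genes from 465 higher and 993 lower to 281 and 1553.

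**Figure D1:**
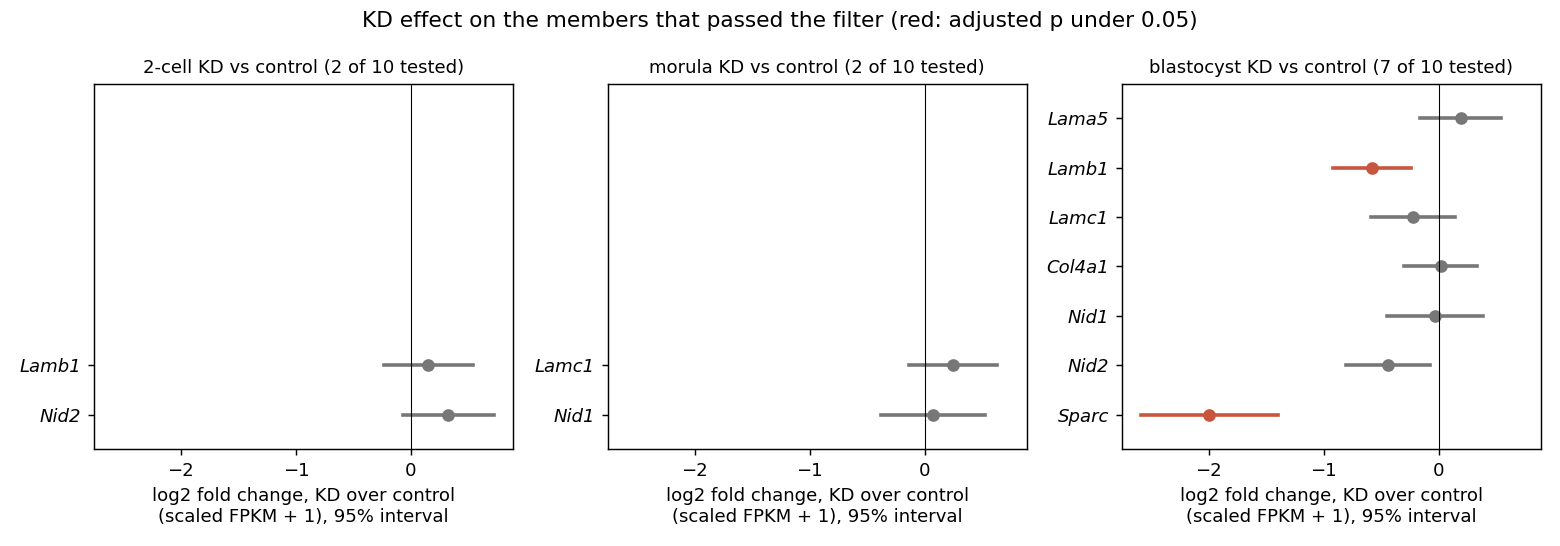
Log2 fold change of KD over control, on the scale of log2(scaled FPKM + 1), for the members that passed the filter at each stage. Points are estimates of limma and lines their 95% intervals. In blastocysts the intervals of Sparc, Lamb1 and Nid2 lie below 0, and Sparc and Lamb1, in red, had an adjusted p under 0.05.

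Whether the libraries of KD and control overlap can be read for all 10 members. Members were compared on FPKM as deposited, whether or not they passed the filter. The shares of all genes are for scaled values of genes that passed it, so counts and shares are not like for like. In blastocysts every KD library lay below every control library for 4 members, Lama1, Lamb1, Nid2 and Sparc, and for no member above, where 19.4% of all genes tested were lower and 16.1% higher in this way. In morulae the groups overlapped for 10 of 10 members, at a background of 12.2% higher and 15.9% lower. In 2-cell embryos the KD libraries were above the controls for 1 member, Nid2, and below them for none, at backgrounds of 3.79% higher and 3.14% lower.

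**Figure D2:**
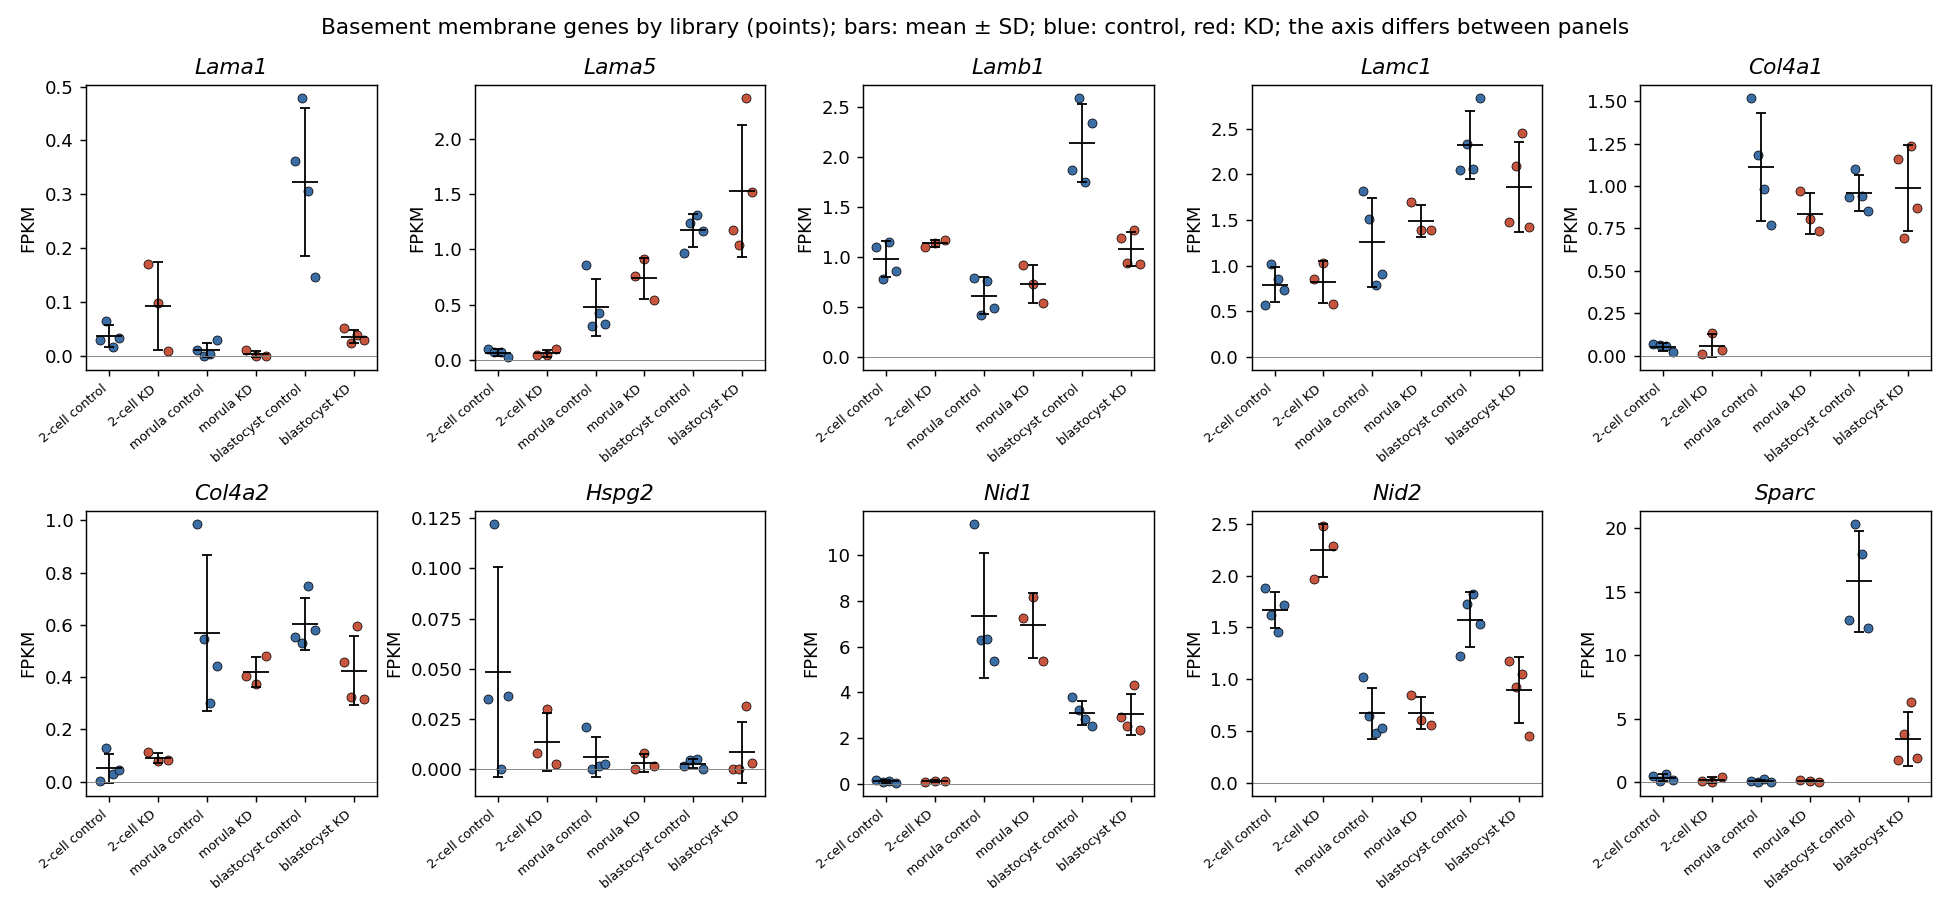
FPKM of each member in the 22 libraries, in 1 panel per gene, with the axis set by the panel. Points are libraries, control in blue and KD in red, and bars give the mean ± SD of the 3 or 4 libraries. In the Sparc, Lamb1, Nid2 and Lama1 panels the 4 KD blastocyst libraries lie below the 4 control blastocyst libraries.

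Sparc, the collagen-binding protein, stood out by its level and by its difference. In control blastocysts it was at 12.8, 20.4, 17.9 and 12.2 FPKM, and in KD blastocysts at 1.79, 3.77, 6.32 and 1.90 FPKM. The highest KD library thus stayed below the lowest control library. The means were 15.8 ± 3.98 (SD, n = 4) and 3.45 ± 2.12 FPKM (SD, n = 4), and the log2 fold change by limma was -1.999 (SE 0.274, 95% interval -2.59 to -1.4, adjusted p = 0.000215), lower in 4 of 4 KD libraries. In control blastocysts 88.2% of the genes above 0 had a lower mean FPKM than Sparc, and in KD blastocysts 76.6%.

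Before the blastocyst stage Sparc was scarce. Its 2-cell libraries lay between 0.0507 and 0.684 FPKM, and its morula libraries between 0.0353 and 0.236 FPKM, with KD and control libraries overlapping at both stages. From control morulae to control blastocysts it rose by 3.79 on the log2 scale (SE 0.176, adjusted p = 8.4e-10), and in KD embryos it rose by 1.75 (SE 0.248, adjusted p = 4.13e-05). The KD effect in blastocysts minus that in morulae was -2.065 (SE 0.339, adjusted p = 0.00104). Sparc passed the filter of these fits only through its blastocyst libraries, so a difference between stages was built into its being tested. The pseudocount of 1 holds down the fold change of a gene that starts near 0, and with 0.1 the control rise was 6.20 and the KD effect in blastocysts -2.31.

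The laminin chains did not move as a unit. Lamb1, the beta chain of laminin-111 and of the laminin with Lama5, was at 1.87, 2.59, 1.75 and 2.33 FPKM in control blastocysts and at 1.18, 0.942, 1.26 and 0.927 FPKM in KD blastocysts. The groups did not overlap. The log2 fold change was -0.58 (SE 0.156, 95% interval -0.919 to -0.242, adjusted p = 0.0119 by limma). With a pseudocount of 0.1 it was -0.91. In 2-cell embryos Lamb1 was 0.783 to 1.15 FPKM in controls and 1.10 to 1.17 FPKM in KD libraries (log2 fold change 0.15, adjusted p = 0.893). In morulae no library reached 1 FPKM, with controls between 0.422 and 0.784 FPKM and KD libraries between 0.541 and 0.918 FPKM (two-sided exact permutation test over 35 splits, p = 0.229).

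In control embryos Lamb1 fell by 0.37 on the log2 scale from the 2-cell to the morula stage (adjusted p = 0.0164) and rose by 0.92 to the blastocyst (SE 0.129, adjusted p = 3.52e-05). The fall was not called on FPKM as deposited (-0.29, adjusted p = 0.0544) or without morula control replicate 2 (-0.30, adjusted p = 0.0633). In KD embryos the change from morula to blastocyst was 0.18 (SE 0.142, 95% interval -0.122 to 0.477, adjusted p = 0.345). The KD effects at the 2 stages differed by -0.7451 (SE 0.193, adjusted p = 0.0192 by limma), a difference that was not called without morula KD replicate 1 (adjusted p = 0.0602). Lamb1 passed the filter of this fit only through blastocyst libraries, so a difference between stages was built into its being tested. In the control fit it would not have passed without its blastocyst libraries, so its rise to the control blastocyst has the same limit.

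Lama1, the alpha chain of the embryonic laminin-111, was below 0.5 FPKM in every library. Control blastocysts had 0.361, 0.479, 0.305 and 0.146 FPKM and KD blastocysts 0.0504, 0.0227, 0.0374 and 0.0295 FPKM, so the groups did not overlap. The mean was 9.22 times higher in controls. The exact permutation test on log2(scaled FPKM + 1) gave p = 0.0286, which is the smallest p that 70 splits of 4 against 4 libraries allow. Without the filter, limma gave -0.34 (adjusted p = 0.0265). In morulae the highest library had 0.0288 FPKM and 3 of the 7 libraries listed Lama1 at 0.

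Lama5, the alpha chain that many adult membranes use, was above Lama1 in every morula and blastocyst library. It was near 0 in 2-cell embryos (0.0257 to 0.0974 FPKM), 0.306 to 0.916 FPKM in morulae and 0.965 to 2.38 FPKM in blastocysts. KD blastocysts had 1.18, 1.04, 2.38 and 1.52 FPKM against 0.965, 1.24, 1.32 and 1.17 FPKM in controls, and the groups overlapped (log2 fold change 0.19, 95% interval -0.161 to 0.543, adjusted p = 0.386). In control embryos Lama5 rose at both steps, by 0.41 (adjusted p = 0.00198) and 0.55 (adjusted p = 0.000539). It reached 1 FPKM in exactly 3 control libraries, blastocyst replicates 4, 5 and 6, so a difference was built into its being tested, and without any of them it was not tested. Lama1 made up 21.3% ± 7.92 (SD, n = 4) of the FPKM of both alpha chains in control blastocysts and 2.43% ± 1.15 (SD, n = 4) in KD blastocysts, with ranges of 11.1 to 27.9% and 1.55 to 4.11%. The alpha chain ratio therefore differed between the groups although the level of Lama5 was not called.

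Lamc1, the gamma chain shared by most laminins, was present from the 2-cell stage on. It was 0.563 to 1.03 FPKM in 2-cell embryos, 0.783 to 1.81 FPKM in morulae and 1.42 to 2.84 FPKM in blastocysts, and KD and control libraries overlapped at every stage. The log2 fold change of KD was 0.24 in morulae (95% interval -0.141 to 0.626, adjusted p = 0.373) and -0.22 in blastocysts (95% interval -0.585 to 0.145, adjusted p = 0.333). In control embryos it rose by 0.56 from morula to blastocyst (adjusted p = 0.00661), and in KD embryos the change was 0.06 (adjusted p = 0.805). The difference between the KD effects at these stages was not called for Lamc1 (-0.488, adjusted p = 0.177 by limma). Lamb1 per Lamc1 was 0.924 ± 0.129 (SD, n = 4) in control blastocysts and 0.605 ± 0.154 (SD, n = 4) in KD blastocysts, and the ranges, 0.823 to 1.11 and 0.452 to 0.799, did not overlap. The 4 chains summed to 5.95 ± 0.715 FPKM in control and 4.50 ± 1.09 FPKM in KD blastocysts.

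The collagen IV chains were near 0 in 2-cell embryos and present in morulae, with no difference called between KD and control embryos. The trimer of this collagen holds more of the Col4a1 chain than of the Col4a2 chain. Col4a1 was 0.00987 to 0.134 FPKM in 2-cell embryos, 0.737 to 1.52 FPKM in morulae and 0.694 to 1.24 FPKM in blastocysts. It was higher by 0.93 in control morulae than in control 2-cell embryos (SE 0.105, adjusted p = 8.67e-07) and changed by -0.10 from there to the blastocyst (95% interval -0.321 to 0.128, adjusted p = 0.502). Of the 12 control libraries exactly 3 reached 1 FPKM, 2 of morulae and 1 of blastocysts, so a difference from the 2-cell stage was built into its being tested, and without any of the 3 it was not tested. The KD effect in blastocysts was 0.02 (95% interval -0.304 to 0.335, adjusted p = 0.946). In morulae, controls had 1.52, 1.19, 0.983 and 0.771 FPKM and KD libraries 0.972, 0.805 and 0.737 FPKM (exact permutation test, p = 0.343).

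Col4a2 stayed below 1 FPKM in all 22 libraries. Control blastocysts had 0.552, 0.530, 0.750 and 0.580 FPKM and KD blastocysts 0.460, 0.324, 0.595 and 0.317 FPKM. The groups overlapped through KD replicate 5, and the exact permutation test gave p = 0.0571. Col4a1 was above Col4a2 in 15 of 15 morula and blastocyst libraries and in 18 of all 22. Over the 22 libraries the levels correlated with r = 0.914, which rests largely on the step from the 2-cell stage, and over the 15 later libraries with r = 0.647. The points share the scaling of their library. The 22 bases that the genes share at their starts carry reads that cannot be assigned to one gene without strand.

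**Figure D3:**
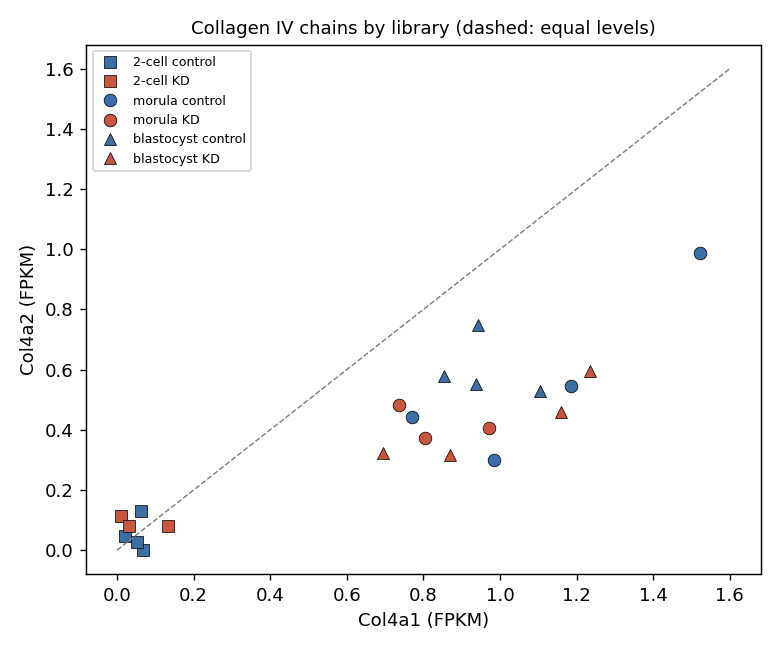
Col4a1 against Col4a2 in FPKM for each of the 22 libraries, by stage (shape) and group (colour), with a dashed line at equal levels. The 15 morula and blastocyst libraries lie below the line, and the 2-cell libraries sit near the origin.

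Perlecan, the heparan sulfate proteoglycan encoded by Hspg2, was at or near 0 throughout. Its highest library, a control 2-cell library, had 0.122 FPKM, and no morula or blastocyst library was above 0.0313 FPKM. Fold changes are not given for this gene. In blastocysts 5 of the 8 libraries listed it above 0 (exact permutation test, p = 0.886).

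The nidogens took opposite courses in control embryos. Nid1 rose from 0.0504 to 0.170 FPKM in control 2-cell embryos to 11.4, 6.29, 6.35 and 5.36 FPKM in control morulae, a change of 2.76 on the log2 scale (SE 0.179, adjusted p = 1.92e-09), and then fell by 0.98 (SE 0.179, adjusted p = 0.000399) to 3.78, 3.25, 2.81 and 2.53 FPKM in blastocysts. The fall was also called in KD embryos, from 7.25, 8.15 and 5.37 to 2.90, 2.53, 4.34 and 2.37 FPKM (log2 fold change -1.145, adjusted p = 0.000376). KD and control embryos overlapped at each stage. The log2 fold change of KD was 0.07 in morulae (95% interval -0.384 to 0.525, adjusted p = 0.844) and -0.04 in blastocysts (95% interval -0.453 to 0.382, adjusted p = 0.907).

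Nid2 had its highest level in 2-cell embryos, 1.46 to 1.88 FPKM in controls and 1.96, 2.48 and 2.29 FPKM in KD libraries. The groups did not overlap, but the log2 fold change of 0.32 (95% interval -0.0728 to 0.719) had an adjusted p of 0.828. It fell by 0.77 to the control morula (adjusted p = 3.9e-05) and rose by 0.60 to the control blastocyst (adjusted p = 0.00102). In blastocysts, controls had 1.23, 1.72, 1.82 and 1.53 FPKM and KD libraries 1.17, 0.927, 1.04 and 0.447 FPKM. The log2 fold change was -0.44 (SE 0.167, adjusted p = 0.0568) and passed the threshold without blastocyst KD replicate 1 (adjusted p = 0.0369) and in a single fit of all libraries (adjusted p = 0.01096).

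The Nid2 values are uncertain because 437 of its 5174 exonic bases are shared with Rtraf, a gene on the opposite strand that encodes an RNA-binding transcription and transport factor. Rtraf was at 162 ± 5.87 FPKM in control blastocysts and 88.4 ± 5.99 FPKM in KD blastocysts (SD, n = 4 each, log2 fold change -0.86, adjusted p = 0.0013 by limma), and it rose by 0.9985 on the log2 scale from control morulae to blastocysts (adjusted p = 0.000255). In morulae Rtraf was lower in KD embryos (-0.48, adjusted p = 0.0433), where Nid2 was 0.478 to 1.02 FPKM in control and 0.557 to 0.85 FPKM in KD libraries (exact permutation test, p = 0.543). From control 2-cell embryos to morulae, where Nid2 was called lower, Rtraf was not called (-0.19, adjusted p = 0.333). Nid2 was between 0.496 and 2.78% of the Rtraf level in all libraries. The Smart-seq2 libraries do not keep strand, and how much of Nid2 came from Rtraf reads was not tested.

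Because FPKM are set per length, the members can be ranked within a group. Nid2 held 40.1% of the summed mean FPKM in control 2-cell embryos, with Lamb1 at 23.4% and Lamc1 at 19.0%. Nid1 held 60.3% in control morulae and 57.9% in KD morulae. Sparc held 56.5% in control blastocysts, and 25.9% in KD blastocysts, where Nid1 held 22.8%. Per library, the share of Sparc was 50.4 to 60.6% in control and 15.8 to 32.1% in KD blastocysts, and that of Nid1 9.47 to 15.4% and 20.5 to 25.5%. The sum of all 10 was 28.0 ± 4.52 FPKM (SD, n = 4) in control blastocysts and 13.3 ± 4.38 FPKM (SD, n = 4) in KD blastocysts, against 12.2 ± 4.31 and 11.96 ± 1.97 FPKM in control and KD morulae. Shares within a sum are tied to each other, and they are given as a description.

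**Figure D4:**
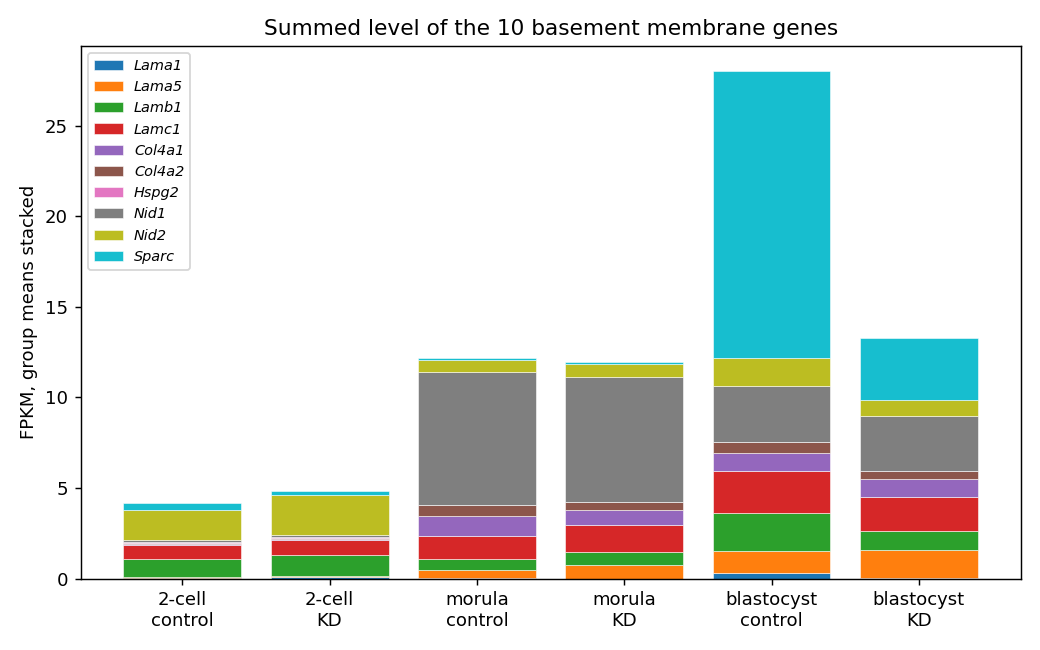
Mean FPKM of the 10 members stacked by group, with the axis from 0. Nid2, Lamb1 and Lamc1 fill most of the 2-cell bars, Nid1 most of the morula bars, and Sparc is the largest part in control blastocysts, where the sum is 28.0 FPKM.

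From control 2-cell embryos to morulae 5 of 7 members tested were called, Lama5, Col4a1 and Nid1 higher and Lamb1 and Nid2 lower, where 81% of all genes were called, 40.6% higher and 40.4% lower. The 3 higher members had no 2-cell library at 1 FPKM and passed the filter through later stages, so this count is not read against the background. From control morulae to blastocysts 6 of 7 were called, Sparc, Lamb1, Nid2, Lamc1 and Lama5 higher and Nid1 lower, at a background of 46% (24.3% higher, 21.7% lower). Sparc and Lama5 passed the filter of this fit through blastocyst libraries alone, and Lamb1 would not have passed without its blastocyst libraries. The calls of these genes therefore cannot be read against that share. In KD embryos 3 of 7 were called over that step, Sparc and Lama5 higher and Nid1 lower, at a background of 38% (19.6% higher, 18.5% lower). Neither Sparc nor Lama5 had a morula library at 1 FPKM, and both passed only through the stage where they were high, so the count is not read against the background. The Lama5 call (log2 fold change 0.41, adjusted p = 0.045 by limma) was lost when any of 10 of the 15 libraries was left out, with adjusted p up to 0.158 (without morula KD replicate 6, 0.33). Without blastocyst KD replicate 5 it was 0.30 (adjusted p = 0.120). It was also lost with a pseudocount of 0.1 (adjusted p = 0.0704), without the filter (adjusted p = 0.073) and with the replicate number as a block (adjusted p = 0.236). Of the KD effects, 2 of 7 differed between the stages, those of Sparc and Lamb1, both lower in blastocysts, at a background of 11.7% (5.43% higher, 6.32% lower), and both had passed the filter through blastocyst libraries alone. On FPKM as deposited the calls of all genes for the KD step moved from 2490 higher and 2351 lower to 3212 and 1566, and those of the stage difference from 691 and 804 to 894 and 703. The stage comparisons and the KD comparisons share libraries.

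Genes that work with the members were taken from a list of 75, of which 31 were tested in blastocysts. There 5 were higher and 6 lower in KD embryos, near the 36.5% called among all genes, with a median log2 fold change of 0.07. The counts by role are too small to be read against that share. Of 9 tested genes for collagen folding and modification 4 were higher and 1 lower. Plod1 (1.27, adjusted p = 0.00882), which hydroxylates collagen lysines, and P4ha1 (1.04, adjusted p = 0.00186), which hydroxylates prolines, were higher. The cyclophilin Ppib, which helps collagen fold, was lower (-1.004, adjusted p = 0.00169), at 346.6 to 443.1 FPKM in control and 167.4 to 235 FPKM in KD blastocysts. Of 7 receptors, the syndecan Sdc1 was higher (1.42, adjusted p = 0.000125) and the dystroglycan gene Dag1, which encodes a laminin receptor, lower (-0.83, adjusted p = 0.00613). Of 4 other basement membrane proteins the fibronectin gene Fn1 was lower (-0.95, adjusted p = 0.00219). Of 3 proteases and inhibitors, Timp1, an inhibitor of matrix metalloproteinases, was lower (-2.22, adjusted p = 0.00013), at 7.03 ± 2.92 FPKM in control and 0.623 ± 0.298 FPKM in KD blastocysts (SD, n = 4 each). Of 4 genes of heparan sulfate synthesis, Ext2 was lower (-0.76, adjusted p = 0.00373), and of 3 genes for secretion of large matrix proteins 0 were called. None of the 4 other collagen IV chains passed the filter. Ext2 reached 1 FPKM in control blastocysts only and Sdc1 in KD blastocysts only. Timp1 and Fn1 would not have passed the filter without their control libraries, nor Plod1 without its KD libraries. A difference was therefore built into the testing of these genes.

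In KD morulae 22 of the 75 were tested, 5 were higher and 0 lower, with a median of 0.04. Of all 10989 genes tested there 13.3% were called, 465 higher and 993 lower. The 5 related genes were the receptors Sdc4 (0.95, adjusted p = 0.00663), Itgav (0.84, adjusted p = 0.0167) and Sdc1 (0.62, adjusted p = 0.0366), the lysyl hydroxylase Plod2 (0.76, adjusted p = 0.0263) and the protease Ctsb (0.91, adjusted p = 0.00581). In 2-cell embryos 0 of 25 were called, as were 0% of all genes. From control morulae to blastocysts 16 of 35 were higher and 4 lower, with a median of 0.53, beside 46% of all genes called, 24.3% higher, and a median of -0.001 over all genes. Among them were Ppib (2.30), Timp1 (2.22), Fbln1 (1.56), Sdc4 (1.52) and Fn1 (1.42) higher and the integrin gene Itgb5 (-2.05) and Plod1 (-1.33) lower. Timp1, Fbln1 and Fn1 reached 1 FPKM in no control 2-cell or morula library, so a rise was built into their being tested. The count and the median are therefore not read against those of all genes. From control 2-cell embryos to morulae 12 of 35 were higher and 12 lower, beside 81% of all genes called, with Sdc4 (6.28) and the integrin gene Itgb1 (2.36) among the former and the collagenase Mmp2 (-3.91) and the integrin gene Itga6 (-2.58) among the latter. Sdc4 reached 1 FPKM in no control 2-cell library and Mmp2 in no later control library, so this count has the same limit. In KD embryos 10 of 31 rose and 2 fell from morula to blastocyst, beside 38% of all genes called. The KD effect differed between the stages for 9 of 31, beside 11.7% of all genes, with 7 of them lower in blastocysts, Timp1 the most (-2.40, adjusted p = 0.000636). Timp1, Fbln1 and Fn1 had no morula library at 1 FPKM, control or KD, and passed the filter of this fit through blastocyst libraries alone. The counts for the KD step and for the stage difference are therefore not read against the background.

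The genes whose levels ran most like Sparc over the 22 libraries were the serine protease Tmprss2 (r = 0.987), the calcium-binding protein Cib2 (r = 0.986) and the fibulin-family gene Efemp1 (r = 0.982), by Pearson correlation of log2(scaled FPKM + 1). Efemp1 was at 11.1 ± 1.97 FPKM in control and 2.76 ± 0.877 FPKM in KD blastocysts (SD, n = 4 each). For Lama1 they were 1700019A02Rik (0.936), Gata2 (0.920), which encodes a transcription factor of the trophoblast, and Noxred1 (0.912). Gata2 was at 2.1 ± 1.13 FPKM in control and 0.121 ± 0.0617 FPKM in KD blastocysts (SD, n = 4 each). For Lamc1 they were Parva (0.907), Gm17383 (0.897) and Gm21972 (0.891), and for Col4a1 the creatine transporter gene Slc6a8 (0.981), Pdzd3 (0.978) and Gm48840 (0.976). Among the members, Lamb1 ranked highest for Sparc (r = 0.772, rank 1060 of 15696 genes), Lamb1 for Lama1 (r = 0.794), Lama5 for Lamc1 (r = 0.797) and Nid1 for Col4a1 (r = 0.922). Such correlations are led by differences between the stages and, for Sparc and Lama1, also between control and KD blastocysts.

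Lineage markers were read beside these values. The 7 trophectoderm markers summed to 990 to 1480 FPKM in control blastocysts and 584 to 784 FPKM in KD blastocysts, and of these Elf5 (-1.23, adjusted p = 0.00051) and the keratin Krt18 (-1.02, adjusted p = 0.00126) were lower and Tfap2c (0.96, adjusted p = 0.00674) was higher. The 8 primitive endoderm markers summed to 110 to 179 FPKM in control and 135 to 184 FPKM in KD blastocysts, with Gata4 below 0.1 FPKM in all control blastocysts and Foxa2 in all blastocysts, and 0 of the 2 tested were called. The sum was carried by Dab2, at 127.6 ± 29.5 FPKM in control and 142.8 ± 12.2 FPKM in KD blastocysts (SD, n = 4 each), and by Gata6. Gata6 was at 10.6 ± 5.87 FPKM in control and 19.0 ± 11.8 FPKM in KD blastocysts (SD, n = 4 each). Of the markers under the filter, Pdgfra, Sox17, Cubn and Sox7 had lower means in KD blastocysts and Gata4 a higher one. Foxa2 was at 0 in both groups. Pdgfra was at 0.714 to 2.93 FPKM in control and 0.213 to 0.904 FPKM in KD libraries. Sox17 was at 0.188 to 1.07 and 0.109 to 0.396 FPKM and Cubn at 0.415 to 0.593 and 0.136 to 0.484 FPKM. Mean FPKM in control and KD blastocysts was 0.0404 and 0.0659 for Gata4 and 0.104 and 0.0962 for Sox7. Apart from Foxa2, the ranges of each overlapped. The 6 epiblast and pluripotency markers summed to 113 to 222 and 138 to 277 FPKM, and 0 of 4 were called. The 5 markers of 2-cell embryos summed to 0.331 to 2.58 FPKM in control and 3.74 to 26.8 FPKM in KD blastocysts, and 2 of 2 were higher. The part of any lineage in the differences of Sparc, Lamb1 and Lama1 was not tested, and in pools of whole embryos fewer cells of a type and less RNA per cell cannot be told apart.

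Markers of cells from outside the embryo were also summed, first in blastocysts. The 7 fibroblast markers summed to 0.298 to 0.65 FPKM in control and 0.0253 to 0.205 FPKM in KD blastocysts, with 5 of 7 below 0.1 FPKM in both groups, among them Col1a1, Col1a2 and Col3a1. The 8 cumulus and granulosa markers summed to 0.0924 to 0.369 and 0.255 to 0.346 FPKM. The 4 blood markers summed to 0.649 to 1.89 FPKM in control and 2.1 to 3.71 FPKM in KD blastocysts, and the 1 tested, the globin gene Hba-a1, was higher in KD blastocysts (0.79, adjusted p = 0.00985) and in KD morulae (1.20, adjusted p = 0.0172). Hbb-bs and Ptprc were below 0.1 FPKM in all blastocyst libraries. In morulae the blood markers summed to 1.31 to 3.67 FPKM in control and 4.3 to 7.8 FPKM in KD libraries, ranges that did not overlap. In 2-cell embryos the cumulus and granulosa markers summed to 1.46 to 3.33 FPKM in control and 1.21 to 3.69 FPKM in KD libraries. Such sums were above the levels of most members at the same stages. The part of cells from outside the embryo in the results was not tested.

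All 10 members are protein-coding and lie on 9 chromosomes of GRCm38, with Col4a1 (chr8:11198423-11312826) and Col4a2 (chr8:11312805-11449287) as the only neighbours. Sparc (chr11:55394500-55423183, - strand) has 3788 exonic bases, and Lamb1 (chr12:31265234-31329644, + strand) has 9917. Lama1 (chr17:67697259-67822647, + strand) has 9681 exonic bases, and Nid1 (chr13:13437551-13512269, + strand) has 6943. Apart from Nid2 and the collagen pair, exonic bases shared with another gene were found for Nid1, 143 with the antisense gene Gm48682, whose highest level was 0.0613 FPKM, and for Col4a2, 43 with the antisense gene Gm15419.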

How the data were processed

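RNA-seq libraries of pooled mouse embryos were analysed at the level of genes. The authors aligned reads to mm10 with STAR, ran StringTie 2.1.4 on each library and deposited its FPKM, which correct for transcript length and for the depth of the library. Read counts were not used here. Titles gave the condition, stage and number of a library. Of the 55335 genes, 13853 were at 0 in all 22 libraries.

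FPKM of the libraries in a fit were divided by a median-of-ratios factor, and log2 values were taken after adding a pseudocount of 1, which understates the change of low genes. Genes with at least 1 FPKM in at least 3 libraries of the fit were tested with limma 3.58.1 (R 4.3.3, eBayes with a trend, no covariates), with Benjamini-Hochberg adjustment over all genes tested and a threshold of 0.05. Each stage was fitted alone for KD against control. The 12 control libraries were fitted together for the stages, and the 15 morula and blastocyst libraries for the KD change between stages and for the difference of KD effects. Members under the filter were given a two-sided exact permutation test on mean log2(scaled FPKM + 1). Levels in the text are FPKM as deposited, and fold changes are on the scaled log2 scale unless a ratio of means is named.

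Intervals carry 95% confidence. Because only 6.98 to 23.7% of low values of single-exon genes fell on whole steps within 1%, no reads could be recovered. Alternatives were FPKM as deposited, a pseudocount of 0.1, no filter, a single fit of all libraries, the replicate number as a block, low against high replicate numbers as a batch and leaving out each library. All steps were tested on simulated data. Figures were drawn with matplotlib 3.10.9.

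The members, the list of related genes and the marker lists were chosen with earlier results of these data known. All 10 members were named, of each group of related genes up to 3 called genes with the largest change, and the 3 genes most correlated with Lama1, Lamc1, Col4a1 and Sparc. Rtraf and marker genes were named with their values known. For 1 related gene the result is not reported here. Positions are from GENCODE vM21 and promoter sequence from RefSeq, both on GRCm38, the assembly of mm10.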

Additional observations from a re-analysis of the deposited data

Results flagged for a closer look

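Of 40 member and group combinations with 4 libraries, 3 held a library whose gap to the nearest of the other three, divided by the range of the group, was above Dixon's 95% critical value. By its construction that threshold is passed by chance in about 1 of 20 groups. They were Nid1 in morula control replicate 1 (11.4 FPKM), Hspg2 in the same library (0.0211 FPKM) and Hspg2 in blastocyst KD replicate 5 (0.0313 FPKM). Morula control replicate 1 was also the highest control morula library for 8 of the 10 members, and blastocyst KD replicate 5 the highest KD blastocyst library for 8 of the 10, and their scaling factors, 1.24 and 1.25, were the largest of the 22. Without the former, Nid1 fell by 0.82 from control morulae to blastocysts (adjusted p = 0.00101 by limma), and without the latter the KD effect on Sparc in blastocysts was -2.23 (adjusted p = 0.000182) and that on Lamb1 -0.59 (adjusted p = 0.019).

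The KD effect differed between blastocysts and morulae, by the interaction in limma, for 2 of the 7 members tested. The difference was -2.065 on the log2 scale for Sparc and -0.7451 for Lamb1. Both passed the filter of that fit only through blastocyst libraries, and morula libraries were all below 1 FPKM.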

How the results depend on the processing

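Under alternatives other than leaving out a library, 190 results of members kept their direction and their side of the threshold, 9 lost a call, 2 gained one and 5 turned sign. Those that turned were Nid1 on FPKM as deposited, in KD morulae (-0.04073) and in the stage difference (0.005016), Col4a1 in KD blastocysts in a single fit of 22 libraries (-0.004137), and the pair named with the block below. In that fit 33 genes were called in 2-cell embryos. Without the filter, 412 genes were called in morulae (1458 with it) and 988 for the stage difference (1495 with it).

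Same-numbered control and KD libraries did not deviate together throughout. Their r was between 0.0146 and 0.214 over 3 pairs in 2-cell embryos, 0.0944 and 0.181 over 2 in morulae, and -0.111 and 0.354 over 4 in blastocysts. Over 6 same-numbered pairs of control libraries across stages it was between -0.332 and 0.194. The mean r of same-numbered and of other pairs was 0.146 and -0.0487 in 2-cell embryos, 0.138 and -0.0282 in morulae, and 0.0826 and -0.0289 in blastocysts. Across control stages these means were 0.00203 and -0.000768. With so few pairs the values cannot decide whether the number marks a pairing. With the replicate number as a block, 3 members were called from control morulae to blastocysts in place of 6 and 1 for the stage difference in place of 2, Lamc1 (-0.00559) and Nid2 (-0.001919) turned sign over the KD step, and Lama5 (adjusted p = 0.1379), Lamc1 (adjusted p = 0.2445) and Nid2 (adjusted p = 0.1175) lost their call from control morulae to blastocysts. Lamb1 lost its call from the 2-cell stage to the morula (adjusted p = 0.0848) and for the stage difference (adjusted p = 0.0594), all by limma. In KD blastocysts Sparc and Lamb1 stayed called.

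Leaving out each library in turn, between 2 and 3 members were called in KD blastocysts, 3 and 5 from control 2-cell embryos to morulae (3 without morula control replicate 2 or blastocyst control replicate 4), and 1 and 2 for the stage difference. The count of all genes ranged from 0 to 3 in 2-cell embryos, from 551 to 1744 in morulae (551 without morula KD replicate 2), and from 962 to 1722 for the stage difference (962 without morula KD replicate 1). The KD effect on Nid1 ranged from -0.04468 to 0.219 in morulae and -0.134 to 0.08011 in blastocysts, and Col4a1 from -0.01869 to 0.07907 in KD blastocysts and -0.04556 to 0.07357 over the KD step. Most members are near 1 FPKM, where depth limits what could be seen.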
